A study of Danio rerio with 12 samples.

Results

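Forkhead genes encode transcription factors that bind DNA through a shared winged-helix domain, and their transcripts were followed here across 12 RNA-seq libraries from the adult zebrafish kidney, the main blood-forming organ of adult fish. Members were all gene identifiers whose symbol starts with fox, then a letter from a to s, then a digit, in upper or lower case. This gave 62 of the 32047 identifiers, and the rule uses no measured value. The niche libraries came from ZKS cells, from pericytes (titled by pdgfrb) and from sinusoids (titled by high uptake of Ac-LDL, acetylated low-density lipoprotein, which scavenger endothelium takes up). The other libraries came from double positive (DP) cells, gata2a+ runx1+, after co-culture with ZKS cells with IWR-1-endo and Thpo added, after co-culture without these additions, or without culture. IWR-1-endo is an inhibitor of canonical Wnt signalling and Thpo is the cytokine thrombopoietin. Each of the 6 groups had 2 libraries, and per the labels all came from wild-type adults and from cells sorted from the kidney. A stromal cell line grown from zebrafish kidney carries the name ZKS too, and the labels leave unsaid whether the profiled ZKS cells had been cultured. No label says that the 2 libraries of a group came from separate fish, so p-values measure only the spread between these libraries, which may be technical.

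As background, forkhead factors act at many steps of vessel, stroma and blood cell biology. Foxc and Foxf genes act in vessels and in the cells around them. Foxd1 marks the stromal progenitors of the mouse kidney. FoxM1 drives genes of mitosis in dividing cells. FoxO factors enter the nucleus when insulin and Akt signalling is low and switch on genes of cell cycle arrest, stress resistance and metabolism, and in the mouse they are needed to keep blood stem cells quiescent. FoxJ1 drives genes of motile cilia in fish and mammals.

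Values are CPM, reads of a gene scaled to a common library total, as the authors deposited them, and they were set against each other only between libraries, not between genes of different length. The 6 niche libraries held 6984492 to 16242092 reads. For the DP libraries no depth could be read, and there a 0 is no more than an entry of 0: of 57 genes of RNA polymerase II and the proteasome, 7 to 14 per library were also at 0, against 3 to 7 in the niche libraries. The genes named in the labels checked them, with stab2 for the sinusoids, which were titled by Ac-LDL uptake and not by a gene. PDGFRB was highest in pericytes (124 to 125 CPM, with 31.0 to 31.6 CPM in ZKS cells), the scavenger receptor gene stab2 was at 2352 to 3484 CPM in sinusoids and under 20 CPM in the other niche libraries, and GATA2 was at 9.1 to 319.8 CPM in the DP libraries, but also at 140.44 and 146.9 CPM in pericytes and at 50.33 and 45.99 CPM in sinusoids, while RUNX1, at 6.3 and 6.1 CPM in uncultured DP cells, was listed at 0 in 3 of the 4 co-cultured libraries and at 0.1 CPM in the other. In the niche RUNX1 was at 6.85 and 3.58 CPM in pericytes, at 1.12 and 0.99 CPM in sinusoids and at 0 in both ZKS libraries. In such bulk libraries fewer cells of a type and less RNA per cell cannot be told apart. Transcripts of other cells were present. Erythroid genes summed to 7.24 and 4.45 CPM in ZKS cells, to 344 and 463 CPM in pericytes, and to 2094 and 754 CPM in sinusoids, and 4 and 6 of 8 tested were lower in ZKS cells than in pericytes and than in sinusoids. Macrophage genes summed to 1.74 and 2.31 CPM in ZKS cells against 783 to 4425 CPM in the other niche libraries, and 9 of 15 tested were lower in ZKS cells in each comparison. The sums in pericytes (3373 and 4425 CPM) were mostly cd74a, at 2432 and 3251 CPM there and at 172 and 214 CPM in sinusoids. MPEG1 (ENSDARG00000043093) was at 18.7 and 10.0 CPM in pericytes and at 145 and 259 CPM in sinusoids. Of the 15 tested, 3 were higher and 4 lower in pericytes than in sinusoids. The part of transcripts of other cells in the results on forkhead genes was not tested.

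Above 0 were 31 to 43 of the 62 members in each niche library and 9 to 15 in each DP library. Of all 32047 identifiers, 15545 to 20626 were above 0 in the niche libraries and 7329 to 9712 in the DP libraries. Of the 62 members, 3 were at 0 in all 12 libraries, 26 others stayed under 5 CPM everywhere, 7 reached 5 CPM without doing so in both libraries of any group, and 26 reached 5 CPM in both libraries of at least 1 group. All 26 did so in a niche group, and 10 of them were at 5 CPM or more in all 6 niche libraries. ZKS cells had 18 members at 5 CPM in both libraries, pericytes 20 and sinusoids 13. Among DP cells this held for 9 members in cells co-cultured with IWR-1-endo and Thpo, 4 in co-cultured cells and 7 in uncultured cells. The DP libraries listed 39 members at 0 throughout, and 10 of these were among the 26 found in the niche. Symbols shared by 2 copies (FOXB1, FOXK2, FOXL2, FOXN2 and FOXO1) are given with their identifiers, because reads from similar copies could have been split in the authors' counting.

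**Figure D1:**
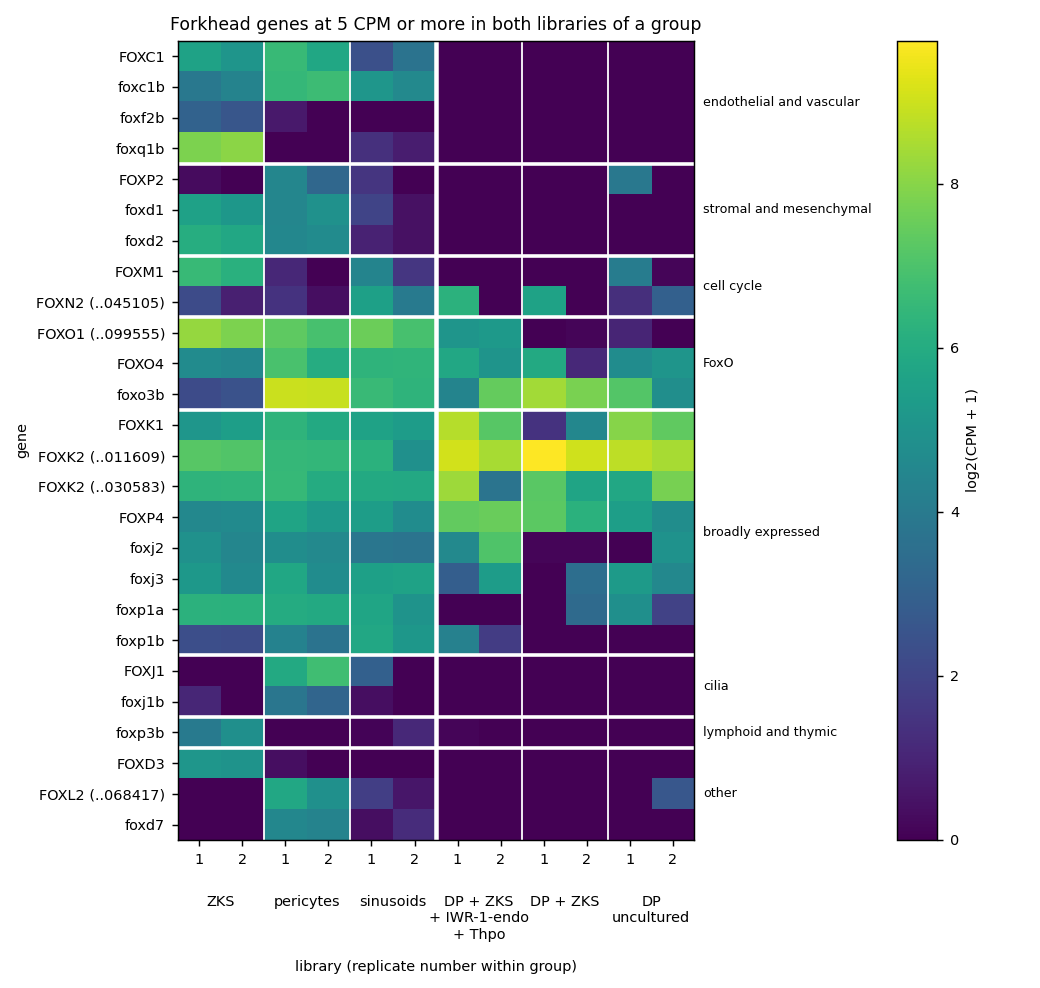
log2(CPM + 1) of the 26 forkhead genes that reached 5 CPM in both libraries of at least 1 group. Columns are the 12 libraries by group and replicate number, rows are genes ordered by role, and the colour bar gives the scale. The 8 broadly expressed genes at the centre are present in all 6 niche libraries, while the vascular, stromal and cilia genes are listed at 0 in the DP libraries apart from 1 uncultured library for FOXP2.

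Differences between groups were tested with limma on log2(CPM + 1) across all 15916 genes that passed a filter of 1 CPM in 2 niche libraries, with Benjamini-Hochberg adjustment and a threshold of 0.05. Of the 62 members 37 passed this filter. In ZKS cells against pericytes 19 of the 37 were called, 6 higher and 13 lower, where 37.2% of all tested genes were called, 15.2% higher and 22.0% lower. In ZKS cells against sinusoids 16 were called, 10 higher and 6 lower, where 31.6% of all tested genes were called, 13.7% higher and 17.9% lower. In pericytes against sinusoids 13 were called, 11 higher and 2 lower, where 25.4% of all tested genes were called, 14.4% higher and 10.9% lower. The median log2 change of the 37 members was -0.79, -0.59 and 0.35 in these 3 comparisons, and that of all tested genes was -0.15, -0.12 and -0.06. The 3 comparisons share libraries in pairs. Across them 26 members were called at least once: 6 were higher in ZKS cells than in both other groups, 3 lower in ZKS cells than in both, 8 higher in pericytes than in both and 2 higher in sinusoids than in both. Without ZKS replicate 2 the counts against pericytes and sinusoids were 9 and 6 of 34 members tested, and without ZKS replicate 1 they were 11 and 8 of 34. Over all genes the calls against pericytes numbered 1832 and 1945 without these libraries, against 5918 with both, and the calls against sinusoids 1792 and 1879, against 5024. In ZKS cells against sinusoids the split of calls depended on the tool, with 7 higher and 7 lower by edgeR on recovered reads and 10 higher and 12 lower by DESeq2. In pericytes against sinusoids it was 7 higher and 2 lower by edgeR and 11 higher and 4 lower by DESeq2.

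**Figure D2:**
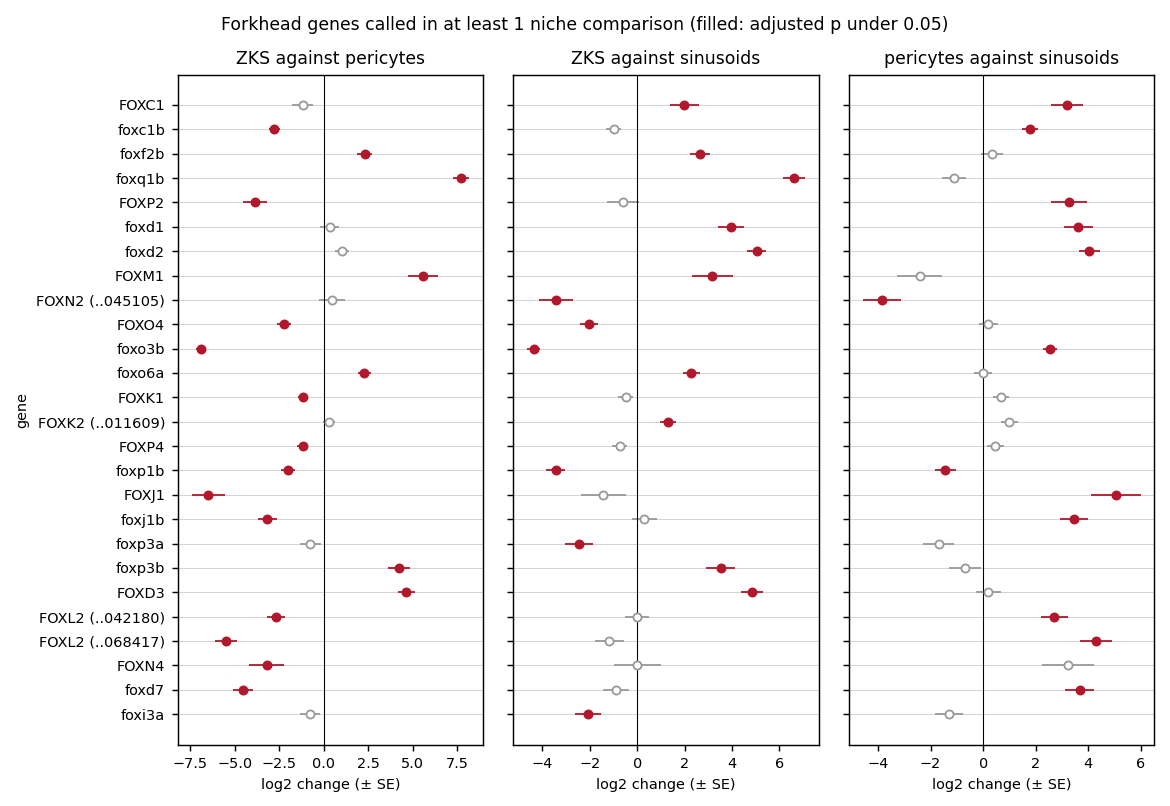
log2 change with its standard error (x axis) of the 26 forkhead genes called in at least 1 niche comparison (y axis, by role), 1 panel per comparison, with the first-named group over the second. Filled red points have a limma adjusted p under 0.05 and open grey points do not. foxq1b lies farthest to the right in both comparisons of ZKS cells (7.71 and 6.61), and foxo3b farthest to the left (-6.92 and -4.37).

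The vascular members did not share 1 pattern. Of 5 tested, 2 were higher and 1 lower in ZKS cells than in pericytes, 3 were higher in ZKS cells than in sinusoids, and 2 were higher in pericytes than in sinusoids. foxq1b and foxf2b were highest in ZKS cells, and FOXC1 and foxc1b were highest in pericytes. In the RefSeq annotation (assembly GRCz12tu) foxq1b, foxf2b and foxc1b lie next to each other in this order, with 0 genes between them. foxq1b (ENSDARG00000055395), whose human counterpart is known in epithelial and mesenchymal states of tumour cells, was at 223 and 265 CPM in ZKS cells, at 0 and 0 CPM in pericytes and at 1.57 and 0.74 CPM in sinusoids. Both ZKS libraries stood far above all others. Against the limit of 3 reads in pericytes its mean was at least 567-fold higher in ZKS cells (log2 change 7.71 ± 0.47 SE, limma adjusted p = 0.000159), and against sinusoids the log2 change was 6.61 ± 0.47 (adjusted p = 0.000218). All fold bounds, here and below, set the mean of a group's libraries against that limit. A single library can give a smaller fold. Its neighbour foxf2b (ENSDARG00000070389), which in zebrafish acts in brain pericytes and smooth muscle, was at 7.34 and 5.06 CPM in ZKS cells, at 0.57 and 0 CPM in pericytes and at 0 and 0 CPM in sinusoids. It was higher in ZKS cells than in sinusoids, at least 27.7-fold (limma adjusted p = 0.00447), and higher than in pericytes by limma (2.29 ± 0.42, adjusted p = 0.00725, with 0.00373 to 0.151 over 10 alternatives). The call against pericytes was lost by edgeR (adjusted p = 0.128) and DESeq2 (adjusted p = 0.151) on recovered reads.

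The third neighbour, foxc1b (ENSDARG00000055398), a Foxc gene of vessel and mesenchyme development, ran the other way. It was at 14.0 and 19.3 CPM in ZKS cells, at 87.8 and 100.2 CPM in pericytes and at 33.5 and 23.2 CPM in sinusoids, so that the groups did not overlap. It was lower in ZKS cells than in pericytes (-2.79 ± 0.32, limma adjusted p = 0.00133) and higher in pericytes than in sinusoids (1.79 ± 0.32, adjusted p = 0.00933), while ZKS cells against sinusoids fell short of the threshold (-1.0 ± 0.32, adjusted p = 0.0531), but not with a filter of 5 CPM (0.0456) or by DESeq2 (0.0205). Its paralogue FOXC1 (ENSDARG00000091481) was at 47.7 and 32.6 CPM in ZKS cells, at 93.5 and 54.8 CPM in pericytes and at 4.19 and 12.3 CPM in sinusoids. The sinusoid libraries were lowest for FOXC1, whereas for foxc1b the ZKS libraries were lowest. FOXC1 was higher in pericytes than in sinusoids (3.19 ± 0.61, limma adjusted p = 0.0115, 0.00024 to 0.0668 over 12 alternatives, lost without pericyte replicate 1 at 0.0668). FOXC1 in ZKS cells against pericytes was not called (-1.2 ± 0.61, adjusted p = 0.164), except with the 4 libraries alone (0.0365). Its call in ZKS cells against sinusoids (1.99 ± 0.61, adjusted p = 0.046) was lost in 7 of 12 alternatives, with adjusted p of 0.0111 to 0.199. Among them, leaving out ZKS replicate 1 gave 0.199, ZKS replicate 2 gave 0.119, and sinusoid replicate 1 gave 0.0939 with a log2 change of 1.19. Of the remaining vascular members, foxf2a (ENSDARG00000017195) was at 0 and 0 CPM in ZKS cells, at 1.71 and 0 CPM in pericytes and at 0 and 3.82 CPM in sinusoids and was not called by limma with all 6 libraries, but was lower in ZKS cells than in sinusoids without sinusoid replicate 1 (adjusted p = 0.0476). FOXF1 and FOXQ1 stayed under 5 CPM in every library and did not pass the filter.

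**Figure D3:**
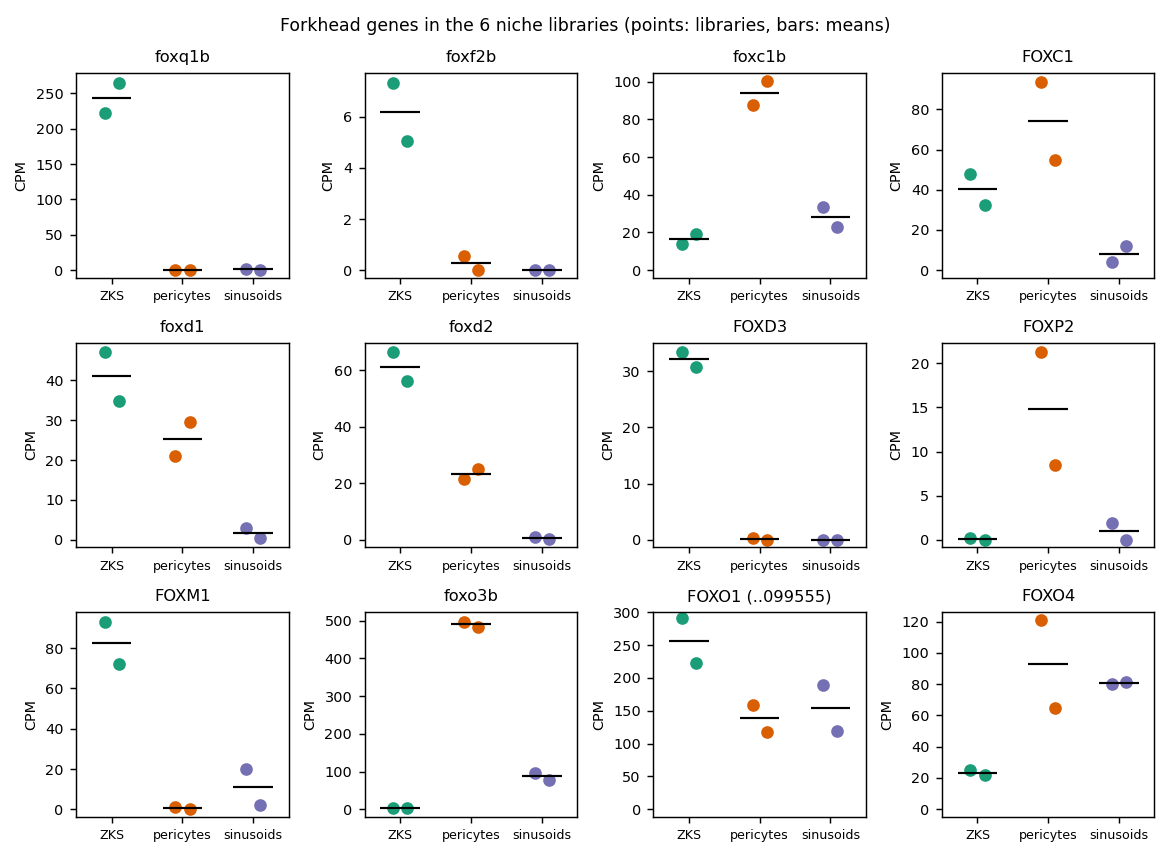
CPM (y axis, linear, a separate scale per gene) of 12 forkhead genes in ZKS cells, pericytes and sinusoids (x axis). Points are the 2 libraries of a group and bars are their means. foxq1b, foxf2b, FOXD3 and FOXM1 are highest in both ZKS libraries, foxc1b, FOXP2 and foxo3b in both pericyte libraries, and foxd1 and foxd2 are lowest in both sinusoid libraries.

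Endothelial genes gave the setting for these vascular members. Of 27 tested, 0 were higher and 24 lower in ZKS cells than in sinusoids, with a median log2 change of -6.56, and 1 was higher and 20 were lower in pericytes than in sinusoids. Against pericytes 1 was higher and 19 were lower in ZKS cells, or 1 and 12 with a pseudocount of 5 or without ZKS replicate 2 and 1 and 11 without ZKS replicate 1. The vascular cadherin gene cdh5 was at 0 CPM in both ZKS libraries, at 4.42 and 2.29 CPM in pericytes and at 795 and 685 CPM in sinusoids. In sinusoids, the niche group with the highest sum of endothelial genes, foxc1b and FOXC1 reached 5 CPM in at least 1 library. The other 5 vascular forkhead genes, FOXF1, foxf2a, foxf2b, FOXQ1 and foxq1b, did not.

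Of the 3 stromal members tested, 1 was lower in ZKS cells than in pericytes, 2 were higher in ZKS cells than in sinusoids and all 3 were higher in pericytes than in sinusoids. The stromal members foxd1 and foxd2 were shared by ZKS cells and pericytes and almost absent from sinusoids. foxd1 (ENSDARG00000029179) was at 47.1 and 34.9 CPM in ZKS cells, at 21.1 and 29.5 CPM in pericytes and at 2.99 and 0.37 CPM in sinusoids. It was higher than in sinusoids both in ZKS cells (3.95 ± 0.55, limma adjusted p = 0.00261) and in pericytes (3.62 ± 0.55, adjusted p = 0.00506). foxd2 (ENSDARG00000058133), a close relative active in kidney mesenchyme of the mouse, was at 66.4 and 56.1 CPM in ZKS cells, at 21.6 and 25.2 CPM in pericytes and at 0.90 and 0.37 CPM in sinusoids. It was higher than in sinusoids in ZKS cells (5.04 ± 0.39, limma adjusted p = 0.000304) and in pericytes (4.04 ± 0.39, adjusted p = 0.00116). Both ZKS libraries were above both pericyte libraries for both genes, but neither difference was called (foxd1 0.32 ± 0.55, adjusted p = 0.67; foxd2 1.0 ± 0.39, adjusted p = 0.0897). For foxd2 the difference was past the threshold with CPM as deposited, with a pseudocount of 5 and with the 4 libraries alone (adjusted p of 0.0433, 0.0476 and 0.0258).

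FOXP2 (ENSDARG00000005453), known in humans for its role in speech, was the stromal member highest in pericytes, at 0.22 and 0 CPM in ZKS cells, at 21.3 and 8.45 CPM in pericytes and at 1.87 and 0 CPM in sinusoids. Its pericyte libraries differed from each other but did not overlap the others. It was lower in ZKS cells than in pericytes (-3.87 ± 0.68, limma adjusted p = 0.00605), a call lost without ZKS replicate 2 at adjusted p = 0.0603, the highest of 12 alternatives that began at 0.00125. It was higher in pericytes than in sinusoids (3.28 ± 0.68, adjusted p = 0.0153, 0.00751 to 0.158 over 12 alternatives), a call lost without pericyte replicate 1 (0.061), without sinusoid replicate 2 (0.064), by edgeR (0.158) and by DESeq2 (0.0611). In the DP set FOXP2 was listed at 13.8 CPM in 1 uncultured library and at 0 in the other 5. The remaining stromal member, foxl1, stayed under 1 CPM everywhere.

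Of 19 tested stromal genes, 1 was higher and 15 were lower in ZKS cells than in pericytes (9 without ZKS replicate 2), 10 were higher and 2 lower in ZKS cells than in sinusoids, and 17 were higher and 1 lower in pericytes than in sinusoids. Thus foxd1 and foxd2 were not called between ZKS cells and pericytes while most of these genes were lower in ZKS cells. COL1A1 (ENSDARG00000035809), a fibrillar collagen chain, differed by -9.44 ± 0.28 (limma adjusted p = 3.00e-05), and PRRX1 (ENSDARG00000033971), a mesenchymal homeobox gene, was at 1077 and 943 CPM in ZKS cells, at 98.1 and 68.3 CPM in pericytes and at 0.45 and 0.92 CPM in sinusoids. Several forkhead genes of mesenchyme are targets of Hedgehog signalling in the mouse. Of 14 tested Hedgehog genes, 2 were higher and 6 lower in ZKS cells than in pericytes (1 and 4 without either ZKS library, without pericyte replicate 1 or by edgeR), 5 higher and 2 lower in ZKS cells than in sinusoids (3 and 1 without ZKS replicate 1 or sinusoid replicate 1), and 6 higher and 1 lower in pericytes than in sinusoids. The ligand gene ihha (ENSDARG00000058733) was at 221 and 253 CPM in ZKS cells, at 0.57 and 11.9 CPM in pericytes and at 0.15 and 0 CPM in sinusoids. Another ligand gene, IHH (ENSDARG00000037062), was highest in sinusoids, at 51.5 and 104.8 CPM, against 0 and 0 CPM in ZKS cells and 0.57 and 0 CPM in pericytes. IHH was lower than in sinusoids in ZKS cells (-6.3 ± 0.65, limma adjusted p = 0.000861) and in pericytes (-5.95 ± 0.65, adjusted p = 0.00171). The pathway factor GLI1 (ENSDARG00000101244) was at 29.4 and 18.0 CPM in ZKS cells, at 46.2 and 22.5 CPM in pericytes and at 0 and 0.12 CPM in sinusoids.

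Of the 3 cell cycle members tested, 1 was higher in ZKS cells than in pericytes, 1 higher and 1 lower in ZKS cells than in sinusoids, and 1 lower in pericytes than in sinusoids. FOXM1 was high in ZKS cells and uneven in sinusoids. FOXM1 (ENSDARG00000003200) was at 93.2 and 72.4 CPM in ZKS cells, at 1.14 and 0 CPM in pericytes and at 19.8 and 1.91 CPM in sinusoids. Both ZKS libraries were above all others, and sinusoid replicate 1 was above replicate 2. It was higher in ZKS cells than in pericytes (5.58 ± 0.86, limma adjusted p = 0.00383). Against sinusoids (3.17 ± 0.86, adjusted p = 0.0312, 0.00738 to 0.16 over 12 alternatives) the call was lost in 5 alternatives. These were leaving out ZKS replicate 1 (0.16), ZKS replicate 2 (0.131) or sinusoid replicate 2 (0.0824, log2 change 1.93), no filter on low values (0.0633) and edgeR (0.114). Pericytes against sinusoids were not called (-2.41 ± 0.86, adjusted p = 0.0847, 0.0141 to 0.291 over 12 alternatives), but were lower without sinusoid replicate 2 (-3.69, adjusted p = 0.0215) and by DESeq2 (adjusted p = 0.0141). In the DP set FOXM1 was listed at 16.1 and 0.1 CPM in uncultured cells and at 0 in all 4 co-cultured libraries.

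The partners and mitotic targets of FoxM1, such as B-Myb, cyclins and mitotic kinases, were as a sum high in ZKS cells and in sinusoid replicate 1. Their summed level was at 3100 and 2858 CPM in ZKS cells, at 232 and 214 CPM in pericytes and at 1729 and 110.4 CPM in sinusoids. Of 21 tested, 7 were higher and 0 lower in ZKS cells than in pericytes, with a median log2 change of 3.12. Against sinusoids 5 were higher and 0 lower, with a median of 2.08, and pericytes against sinusoids gave 0 calls by limma (1 gene at an unadjusted p under 0.05), 0 by edgeR and 4 lower by DESeq2. The counts depended on which sinusoid library was used. Without sinusoid replicate 1, 16 were higher and 0 lower in ZKS cells than in sinusoids, and without sinusoid replicate 2, 4 were higher and 2 lower in ZKS cells and 13 were lower in pericytes. Without sinusoid replicate 1, 3 were higher in pericytes. Without ZKS replicate 1 or 2 the count was 3 against pericytes and 1 against sinusoids, and without pericyte replicate 1 or 2 it was 5 or 4 against pericytes. With no filter the counts against pericytes and sinusoids were 4 and 2, by edgeR 4 and 2, by DESeq2 14 and 5, and with CPM as deposited 12 and 6. TTK (ENSDARG00000041361), a kinase of the spindle checkpoint, was at 282 and 265 CPM in ZKS cells, at 4.0 and 7.45 CPM in pericytes and at 39.3 and 4.74 CPM in sinusoids. Not all genes of the list had the order of FOXM1. The cyclin genes CCNB1 and CCNB2 were higher in sinusoid replicate 1 than in ZKS cells (named after their values were seen). CCNB1 was at 92.3 and 129 CPM in ZKS cells against 390 CPM there, and CCNB2 at 11.45 and 11.54 against 224 CPM. Sinusoid replicate 1, with the higher FOXM1, also held more transcripts of the tubule cadherin gene CDH17 (ENSDARG00000005112), at 366 against 0.12 CPM in replicate 2, and of the erythroid genes, and their part in the result was not tested.

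FOXN2 (ENSDARG00000045105) was highest in sinusoids, at 3.67 and 0.81 CPM in ZKS cells, at 1.71 and 0.29 CPM in pericytes and at 45.2 and 14.7 CPM in sinusoids. It was lower than in sinusoids in ZKS cells (-3.42 ± 0.72, limma adjusted p = 0.0129, 0.00142 to 0.12 over 12 alternatives) and in pericytes (-3.86 ± 0.72, adjusted p = 0.011, 0.000448 to 0.058 over 12 alternatives). The first call was lost without ZKS replicate 2 (0.12) or sinusoid replicate 1 (0.0517), and the second without pericyte replicate 2 (0.058). The other copy named FOXN2 (ENSDARG00000055574) stayed under 1 CPM apart from 23.4 CPM in 1 library of DP cells co-cultured with IWR-1-endo and Thpo. foxn3 (ENSDARG00000012833), a checkpoint suppressor when expressed in yeast, was at 0.22 and 0.20 CPM in ZKS cells, at 0.86 and 2.86 CPM in pericytes and at 1.65 and 2.65 CPM in sinusoids. It was not called by limma, but was lower in ZKS cells by DESeq2 against pericytes (adjusted p = 0.0465) and against sinusoids (0.0397), and against sinusoids with the 4 libraries alone (0.0301).

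The FoxO members differed from each other. Of 6 tested, 1 was higher and 2 lower in ZKS cells than in pericytes and likewise than in sinusoids, and 1 was higher in pericytes than in sinusoids. foxo3b (ENSDARG00000042904), a FoxO3 gene, was at 3.67 and 4.45 CPM in ZKS cells, at 497 and 482 CPM in pericytes and at 96.2 and 78.8 CPM in sinusoids. The groups were far apart and their libraries close. It was called in all 3 niche comparisons: lower in ZKS cells than in pericytes (-6.92 ± 0.27, limma adjusted p = 6.10e-05) and than in sinusoids (-4.37 ± 0.27, adjusted p = 0.000134), and higher in pericytes than in sinusoids (2.55 ± 0.27, adjusted p = 0.00152). All 3 calls held under every alternative. FOXO4 (ENSDARG00000055792) was at 24.8 and 21.7 CPM in ZKS cells, at 121 and 65.0 CPM in pericytes and at 80.2 and 81.6 CPM in sinusoids. It was lower in ZKS cells than in pericytes (-2.24 ± 0.37, limma adjusted p = 0.00485). It was also lower than in sinusoids (-2.05 ± 0.37, adjusted p = 0.00708, 3.97e-05 to 0.0613 over 12 alternatives), a call lost without ZKS replicate 2 at 0.0613.

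The main copy of FOXO1 did not follow foxo3b. FOXO1 (ENSDARG00000099555) was at 291 and 223 CPM in ZKS cells, at 159 and 118 CPM in pericytes and at 189 and 119 CPM in sinusoids. Both ZKS libraries were above the other 4, but no comparison was called (0.53 ± 0.27 against pericytes, limma adjusted p = 0.169, and 0.47 ± 0.27 against sinusoids, adjusted p = 0.24). The other copy named FOXO1 (ENSDARG00000061549) was at 0 and 0 CPM in ZKS cells, at 2.57 and 0 CPM in pericytes and at 2.24 and 3.20 CPM in sinusoids. It was not called by limma, but was lower in ZKS cells than in sinusoids by DESeq2 (adjusted p = 0.039) and with the 4 libraries alone (0.0123). foxo3a (ENSDARG00000023058), the paralogue of foxo3b, was at 2.59 and 2.83 CPM in ZKS cells, at 3.71 and 9.31 CPM in pericytes and at 17.7 and 3.32 CPM in sinusoids, and was not called by limma either. foxo6a (ENSDARG00000100486) was seen in ZKS cells only at a low level, at 5.51 and 3.64 CPM against 0 in all pericyte and sinusoid libraries. It was at least 10.6-fold higher in ZKS cells than in pericytes (limma adjusted p = 0.00364, with 0.0658 by DESeq2 the highest and 0.0033 the lowest of 9 alternatives) and at least 20.4-fold higher than in sinusoids (adjusted p = 0.00367). foxo6b reached 2.70 CPM at most and did not pass the filter.

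FoxO factors are held out of the nucleus by insulin receptor, PI3-kinase and Akt signalling. Of 20 tested genes of this regulation, 0 were higher and 6 lower in ZKS cells than in pericytes, or 2 and 4 with CPM as deposited, and 3 or 2 were lower without ZKS replicate 1 or 2. Against sinusoids 4 were higher and 7 lower in ZKS cells, 1 and 1 without either ZKS library and 2 and 4 without sinusoid replicate 2. In pericytes against sinusoids 3 were higher and 2 lower, or 2 and 1 without pericyte replicate 2 or with the 4 libraries alone. The insulin receptor substrate gene IRS1 (ENSDARG00000054087) was at 1.62 and 1.21 CPM in ZKS cells, at 41.5 and 36.9 CPM in pericytes and at 6.13 and 3.82 CPM in sinusoids. The kinase gene akt1 (ENSDARG00000099657) was higher in ZKS cells than in sinusoids (2.57 ± 0.48, limma adjusted p = 0.00813).

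Of 23 tested genes that FoxO factors are known to switch on, 0 were higher and 10 lower in ZKS cells than in pericytes, with a median log2 change of -1.27. With CPM as deposited 2 were higher and 9 lower. Against sinusoids 1 was higher and 8 were lower in ZKS cells, or 3 and 10 without sinusoid replicate 1, with a median of -1.06 in all libraries, and 5 were higher and 3 lower in pericytes than in sinusoids, with a median of 0.06, or 3 and 2 without pericyte replicate 1 or by edgeR. SESN1 (ENSDARG00000020693), a stress gene that restrains growth signalling, was at 8.42 and 7.49 CPM in ZKS cells, at 797 and 740 CPM in pericytes and at 150.0 and 133 CPM in sinusoids, the same order of groups as foxo3b. IGFBP1 (ENSDARG00000099351), which binds insulin-like growth factors, was at 0 CPM in both ZKS libraries, at 164 and 99.1 CPM in pericytes and at 134 and 49.7 CPM in sinusoids. Not all genes of this list were low in ZKS cells. The cell cycle inhibitor gene cdkn1a was at 168 and 144 CPM in ZKS cells, at 93.3 and 81.6 CPM in pericytes and at 23.5 and 28.9 CPM in sinusoids (named after its values were seen).

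**Figure D4:**
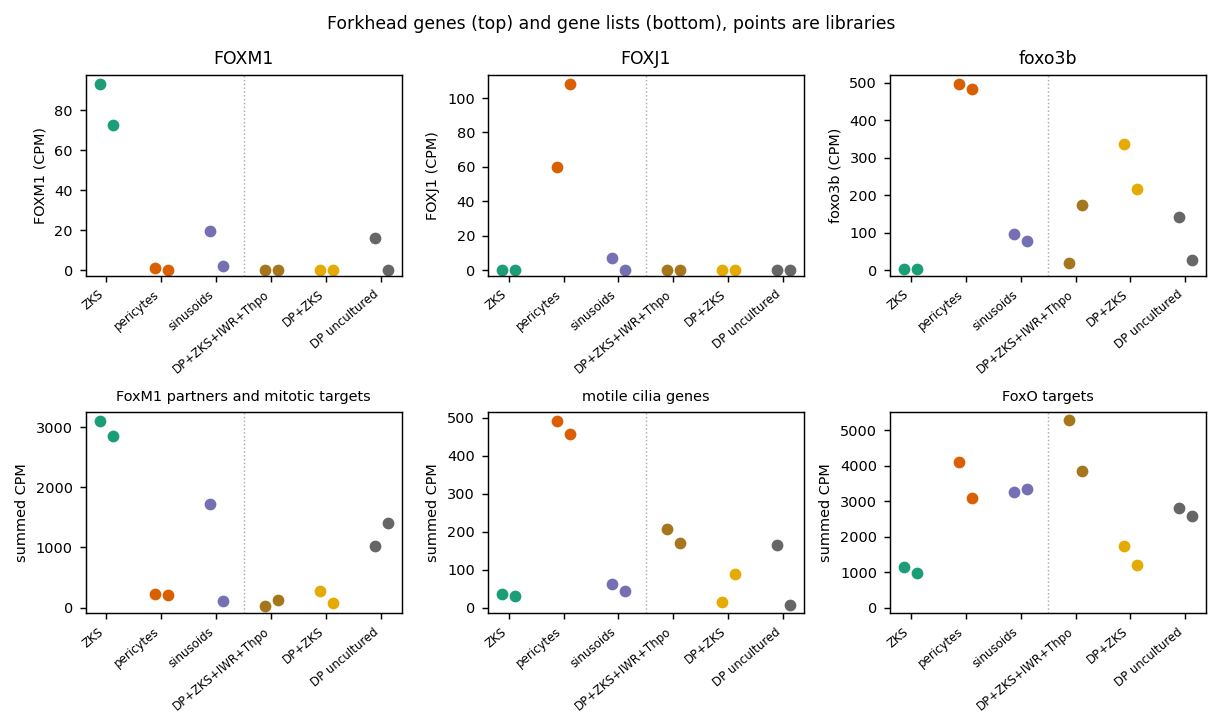
Top row, CPM of FOXM1, FOXJ1 and foxo3b in the 12 libraries. Bottom row, summed CPM of the gene lists set beside them: FoxM1 partners and mitotic targets, motile cilia genes and FoxO targets. The FoxO targets are a list for FoxO factors in general and not for foxo3b alone. The x axis gives the 6 groups, points are libraries, and the dotted line separates the niche from the DP libraries. Within the niche, FOXM1 and its list are high in ZKS cells and in sinusoid replicate 1. FOXJ1 and its list are highest in pericytes, and foxo3b and the FoxO targets are lowest in ZKS cells, also within the niche. In the DP libraries foxo3b is highest in co-cultured cells without the additions, where the sum of FoxO targets is lowest. TXNIP alone makes up much of the FoxO target sums, with 513 and 393 of 1134 and 985 CPM in ZKS cells. RFX2 makes up most of the cilia sums in pericytes and sinusoids.

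The 8 broadly expressed members were above 0 in all 6 niche libraries. In ZKS cells 0 were higher and 3 lower than in pericytes, and 1 was higher and 1 lower than in sinusoids, and 1 was lower in pericytes than in sinusoids. FOXK2 (ENSDARG00000030583), one of the FoxK genes that in mammals restrain autophagy and act in glucose use, was at 80.7 and 81.2 CPM in ZKS cells, at 91.8 and 62.6 CPM in pericytes and at 59.9 and 57.8 CPM in sinusoids, and was not called by limma. foxp1a (ENSDARG00000004843), a FoxP1 gene of lymphocyte and heart development, was at 74.9 and 73.6 CPM in ZKS cells, at 63.2 and 59.0 CPM in pericytes and at 51.6 and 31.0 CPM in sinusoids, and foxj2 and foxj3 lay between 12.5 and 54.4 CPM in all 6 libraries. None of these 3 was called by limma, and by DESeq2 foxp1a was higher in pericytes than in sinusoids (adjusted p = 0.0409). The paralogue of foxp1a, foxp1b (ENSDARG00000014181), was lowest in ZKS cells and highest in sinusoids, at 4.10 and 3.85 CPM in ZKS cells, at 18.8 and 12.03 CPM in pericytes and at 56.8 and 35.0 CPM in sinusoids. It was lower in ZKS cells than in sinusoids (-3.44 ± 0.39, limma adjusted p = 0.00124) and than in pericytes (-2.0 ± 0.39, adjusted p = 0.0091, 5.20e-06 to 0.0778 over 12 alternatives, lost without ZKS replicate 1 at 0.0746 or replicate 2 at 0.0778). Its call in pericytes against sinusoids (-1.44 ± 0.39, adjusted p = 0.0378) was lost in 8 of 12 alternatives, with adjusted p of 0.0174 to 0.112, among them without pericyte replicate 2 (0.112) and without sinusoid replicate 1 (0.106) or 2 (0.0807).

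FOXK1 (ENSDARG00000037872) was at 34.0 and 43.2 CPM in ZKS cells, at 78.9 and 59.1 CPM in pericytes and at 48.3 and 40.3 CPM in sinusoids. FOXP4 (ENSDARG00000076120) was at 22.7 and 24.6 CPM in ZKS cells, at 51.0 and 36.8 CPM in pericytes and at 41.4 and 25.9 CPM in sinusoids. Both were lower in ZKS cells than in pericytes (FOXK1 -1.17 ± 0.31, limma adjusted p = 0.025; FOXP4 -1.2 ± 0.32, adjusted p = 0.0256). Both calls were lost with CPM as deposited (0.0768 and 0.11), without ZKS replicate 1 (0.199 and 0.185) or 2 (0.102 and 0.144) and without pericyte replicate 1 (0.0877 and 0.0823), and the lowest adjusted p of 12 alternatives was 0.00247 for FOXK1 and 0.0016 for FOXP4. FOXK2 (ENSDARG00000011609) was at 146 and 134 CPM in ZKS cells, at 89.9 and 86.5 CPM in pericytes and at 72.9 and 28.6 CPM in sinusoids. It was higher in ZKS cells than in sinusoids (1.3 ± 0.34, limma adjusted p = 0.0271, 0.006 to 0.15 over 12 alternatives). That call was lost without ZKS replicate 1 (0.15) or 2 (0.137), without sinusoid replicate 2 (0.0539, log2 change 0.87) and with no filter (0.0508).

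Both cilia members were lower in ZKS cells than in pericytes and higher in pericytes than in sinusoids. FOXJ1 (ENSDARG00000101919) was at 0 and 0 CPM in ZKS cells, at 59.7 and 108 CPM in pericytes and at 7.03 and 0 CPM in sinusoids. foxj1b (ENSDARG00000088290) was at 1.08 and 0 CPM in ZKS cells, at 13.0 and 8.16 CPM in pericytes and at 0.30 and 0 CPM in sinusoids. Neither gene's pericyte libraries overlapped the others. Against its mean in pericytes FOXJ1 was at least 259-fold lower in ZKS cells (limma adjusted p = 0.00307). It was higher in pericytes than in sinusoids (5.05 ± 0.94, adjusted p = 0.0107, 0.00352 to 0.369 over 12 alternatives), a call lost without pericyte replicate 2 (0.0715), by edgeR (0.116) and by DESeq2 (0.369). foxj1b was lower in ZKS cells than in pericytes (-3.17 ± 0.52, limma adjusted p = 0.00498, 0.002 to 0.0944 over 12 alternatives) and higher in pericytes than in sinusoids (3.46 ± 0.52, adjusted p = 0.00513, 0.00196 to 0.0803). The first of these calls was lost without ZKS replicate 2 (0.0774) and by edgeR (0.0944), the second by edgeR (0.0803).

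Motile cilia genes were high in the same libraries. Of 13 tested, 0 were higher and 10 lower in ZKS cells than in pericytes (median log2 change -2.96), and 11 were higher and 0 lower in pericytes than in sinusoids (median 2.84). ZKS cells against sinusoids gave 1 higher and 1 lower, or 0 and 1 without ZKS replicate 1 or 2. Without pericyte replicate 1 or 2 the counts for ZKS cells against pericytes and for pericytes against sinusoids were 4 each, without ZKS replicate 1 or 2 the first was 5, and by edgeR the second was 4. The axonemal dynein gene DNAH5 (ENSDARG00000087373) was at 3.13 and 2.63 CPM in ZKS cells, at 41.4 and 52.1 CPM in pericytes and at 1.87 and 0.18 CPM in sinusoids. The summed list was at 35.9 and 31.3 CPM in ZKS cells, at 492 and 457 CPM in pericytes and at 61.9 and 44.0 CPM in sinusoids. The kidney holds tubule cells with motile cilia. The 14 renal tubule genes summed to 837 and 750 CPM in ZKS cells, to 2052 and 1441 CPM in pericytes and to 1724 and 1079 CPM in sinusoids. The phosphate transporter gene SLC20A1 (ENSDARG00000010641), which other cells express too, made up most of this, at 826 and 741 CPM in ZKS cells, at 1894 and 1171 CPM in pericytes and at 997 and 1076 CPM in sinusoids. Above 0 were 8 and 6 of them in ZKS cells, 12 and 11 in pericytes and 12 and 6 in sinusoids. Of 10 tested, 4 were lower in ZKS cells than in pericytes (0 without ZKS replicate 1 or 2 or pericyte replicate 1, 1 without pericyte replicate 2). ZKS cells and pericytes each gave 0 calls against sinusoids by limma, with 0 at an unadjusted p under 0.05. For ZKS cells 1 was lower by edgeR, 4 by DESeq2 and 7 without sinusoid replicate 2. For pericytes 0 were called by edgeR, 1 was lower by DESeq2, 4 were higher without sinusoid replicate 1 and 2 were lower without sinusoid replicate 2. CDH17, at 2.16 and 1.21 CPM in ZKS cells and 70.7 and 142 CPM in pericytes, was highest in sinusoid replicate 1 (366 CPM), where FOXJ1 was at 7.03 CPM. The part of tubule cells in the FOXJ1 result was not tested.

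Of the lymphoid members, foxp3b (ENSDARG00000078279) was highest in ZKS cells, at 14.7 and 28.03 CPM in ZKS cells, at 0 and 0 CPM in pericytes and at 0.07 and 1.17 CPM in sinusoids. FoxP3 is the factor of regulatory T cells in mammals, and the role of foxp3b was not tested here. foxp3b was at least 49.7-fold higher in ZKS cells than in pericytes (limma adjusted p = 0.00311) and higher than in sinusoids (3.52 ± 0.61, adjusted p = 0.00622, lost by edgeR at 0.066, the highest of 12 alternatives that began at 0.00246). Defining T cell genes were not detected beside it: cd4-1, cd8a and lck were at 0 in both ZKS libraries. Of 6 T cell genes tested, 1 was higher and 4 were lower in ZKS cells than in pericytes, with 0 lower without ZKS replicate 1 or 2. Against sinusoids 1 was higher and 2 were lower in ZKS cells, or 0 and 1 without ZKS replicate 1. In pericytes 1 was lower than in sinusoids, a call lost by edgeR and without either sinusoid library. The 9 T cell genes summed to 151 and 109 CPM in ZKS cells, to 54.5 and 38.1 CPM in pericytes and to 61.9 and 56.8 CPM in sinusoids. The ZKS sum was nearly all il2rb, an interleukin receptor chain, at 149 and 107 CPM. The paralogue foxp3a was at 0 CPM in both ZKS libraries, at 0 and 1.72 CPM in pericytes and at 3.81 and 4.74 CPM in sinusoids, and foxn1, the factor of thymic epithelium, did not exceed 0.06 CPM.

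Among members of other roles FOXD3 stood out in ZKS cells. FOXD3 (ENSDARG00000021032), a factor of the neural crest and of pluripotent cells, was at 33.4 and 30.8 CPM in ZKS cells, at 0.29 and 0 CPM in pericytes and at 0 and 0 CPM in sinusoids. It was higher in ZKS cells than in pericytes (4.64 ± 0.46, limma adjusted p = 0.00084) and at least 143-fold higher than in sinusoids (adjusted p = 0.000656). Both calls held under every alternative that tested it, but without either ZKS library FOXD3 did not pass the filter and was not tested. Others were highest in pericytes. FOXL2 (ENSDARG00000068417), a factor of ovarian follicle cells, was at 0 and 0 CPM in ZKS cells, at 56.4 and 28.4 CPM in pericytes and at 2.47 and 0.49 CPM in sinusoids. It was at least 131-fold lower in ZKS cells than in pericytes (limma adjusted p = 0.00116) and higher in pericytes than in sinusoids (4.31 ± 0.61, adjusted p = 0.00396). foxd7 (ENSDARG00000079699) was at 0 and 0 CPM in ZKS cells, at 21.6 and 19.3 CPM in pericytes and at 0.30 and 1.35 CPM in sinusoids. It was at least 63.1-fold lower in ZKS cells than in pericytes (limma adjusted p = 0.00155) and higher in pericytes than in sinusoids (3.68 ± 0.55, adjusted p = 0.00486, 0.00058 to 0.0507 over 12 alternatives, lost by edgeR at 0.0507).

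Besides these, 4 called members lay outside the rule for named genes and were named after their values were seen. The other FOXL2 copy (ENSDARG00000042180) was at 8.71 and 2.72 CPM in pericytes and at 0 in the ZKS and sinusoid libraries. It was lower in ZKS cells than in pericytes (limma adjusted p = 0.00793, lost without ZKS replicate 1 at 0.074 or 2 at 0.0753, lowest of 9 alternatives 0.00416), and higher in pericytes than in sinusoids (adjusted p = 0.0113, lost without sinusoid replicate 2 at 0.0542, lowest 0.0043). FOXN4 (ENSDARG00000010591) rested on 1 library, at 1.71 and 26.3 CPM in pericytes and 0 in the ZKS and sinusoid libraries, and its call in ZKS cells against pericytes (limma adjusted p = 0.0434) was lost in 6 of 9 alternatives (0.0311 to 0.161), among them without ZKS replicate 1 (0.158) or 2 (0.161). foxp3a and the ionocyte gene foxi3a, at 0 and 0 CPM in ZKS cells, at 1.14 and 0.29 CPM in pericytes and at 1.87 and 4.62 CPM in sinusoids, were lower in ZKS cells than in sinusoids (limma adjusted p = 0.0201 and 0.0277). Each of these 2 calls was lost in 5 of 11 alternatives, including those without ZKS replicate 1 (0.135 for foxp3a and 0.169 for foxi3a), without ZKS replicate 2 (0.136 and 0.17) and without sinusoid replicate 2 (0.0853 and 0.0838). Their lowest adjusted p was 0.00668 for foxp3a and 0.00313 for foxi3a. The other tested members, foxa3 and foxh1, reached 3.51 and 6.43 CPM at most, both in sinusoid replicate 1, and were not called by limma.

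In the DP cells 14 members passed the filter of 1 CPM in 2 libraries, among 8795 genes tested, and 0 of the 14 were called by limma in any of the 3 comparisons, where 0.0% of all tested genes were called. At an unadjusted p under 0.05 the members numbered 2 in cells co-cultured with IWR-1-endo and Thpo against uncultured cells, 4 against co-cultured cells, and 1 in co-cultured against uncultured cells. The share of all tested genes at that level was 13.5%, 9.6% and 11.3%. No count test could be run without depth. Across the 14 to 18 forkhead genes above 0 in either library, log2 values of the 2 libraries had a Pearson correlation of 0.643 in cells with IWR-1-endo and Thpo, 0.598 in co-cultured and 0.67 in uncultured cells, against 0.886 to 0.985 in the niche groups, where genes are not independent replicates. Over all genes above 0 the correlation was 0.405, 0.454 and 0.596 in these DP groups, against 0.912 to 0.981 in the niche groups.

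Within the DP set the FoxO members were uneven. FOXO1 (ENSDARG00000099555) was at 33.2 and 37.3 CPM in cells co-cultured with IWR-1-endo and Thpo, 0 and 0.1 CPM in co-cultured cells and 1.0 and 0 CPM in uncultured cells. Both libraries with the additions were above the other 4, yet neither comparison was called: 4.55 ± 1.15 against uncultured cells (limma adjusted p = 0.171, unadjusted 0.00863) and 5.0 ± 1.15 against co-cultured cells (adjusted p = 0.306, unadjusted 0.00574). foxo3b was at 19.9 and 173.7 CPM in cells with IWR-1-endo and Thpo, 336 and 217 CPM in co-cultured cells and 141 and 26.8 CPM in uncultured cells, so that both libraries with the additions lay below both co-cultured ones and overlapped the uncultured ones. FOXO4 was at 56.0 and 32.2 CPM with IWR-1-endo and Thpo, 59.6 and 1.2 CPM in co-cultured and 25.9 and 33.2 CPM in uncultured cells, with all groups overlapping. foxo3a was listed at 0 in both libraries with the additions, at 40.4 and 0 CPM in co-cultured cells and at 7.9 and 0 CPM in uncultured cells. Of 14 tested genes each, 0 FoxO regulators and 0 FoxO targets were called by limma in any DP comparison. At an unadjusted p under 0.05 there were 0 and 4 with the additions against uncultured cells, 2 and 3 against co-cultured cells, and 1 and 6 in co-cultured against uncultured cells. The summed FoxO targets were at 5306 and 3845 CPM with the additions, 1742 and 1210 CPM in co-cultured and 2805 and 2570 CPM in uncultured cells. TXNIP (ENSDARG00000036107), which binds thioredoxin, made up much of these sums. It was at 4669 and 3338 CPM with the additions, 1295 and 483 CPM in co-cultured and 2251 and 1935 CPM in uncultured cells.

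**Figure D5:**
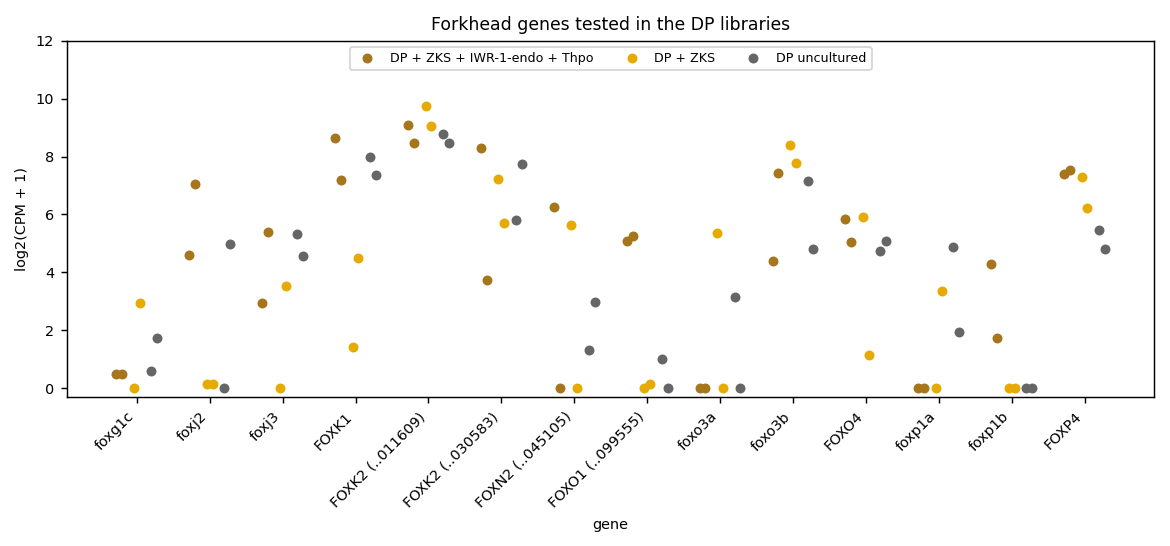
log2(CPM + 1) (y axis) of the 14 forkhead genes tested in the DP libraries (x axis). Points are libraries, with DP cells co-cultured with IWR-1-endo and Thpo left of co-cultured cells and uncultured cells. FOXK2 (ENSDARG00000011609) and FOXP4 are above 20 CPM in all 6 libraries, while FOXN2 (ENSDARG00000045105) is listed at 0 in 1 library of each co-cultured group.

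Of the 14 members tested in DP cells 8 were broadly expressed ones, 4 FoxO genes, 1 a cell cycle member and 1 of another role. FOXK2 (ENSDARG00000011609) was at 544 and 356 CPM in cells with IWR-1-endo and Thpo, 855 and 527 CPM in co-cultured cells and 433 and 356 CPM in uncultured cells. FOXK1 was at 402 and 145 CPM with the additions, 1.7 and 21.8 CPM in co-cultured cells and 250 and 165 CPM in uncultured cells. The co-cultured libraries were lowest for FOXK1, with unadjusted p of 0.0139 against the additions and 0.0144 against uncultured cells, and limma adjusted p of 0.362 and 0.242. FOXP4 was at 166 and 183 CPM with the additions, 157 and 74.6 CPM in co-cultured cells and 42.8 and 26.7 CPM in uncultured cells. Its 4 co-cultured libraries were above both uncultured libraries, without a call (2.13 ± 0.87 for the additions against uncultured cells, limma adjusted p = 0.383).

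The remaining members of the DP set varied widely between the libraries of a group. foxp1b was at 18.4 and 2.3 CPM with IWR-1-endo and Thpo and at 0 in the other 4 DP libraries, while foxp1a was at 0 and 0 CPM with the additions, 0 and 9.3 CPM in co-cultured cells and 28.1 and 2.8 CPM in uncultured cells. foxj2 was at 23.3 and 132 CPM with the additions, 0.1 and 0.1 CPM in co-cultured cells and 0 and 30.6 CPM in uncultured cells. foxj3 was at 6.6 and 41.0 CPM with the additions, 0 and 10.6 CPM in co-cultured cells and 38.7 and 22.6 CPM in uncultured cells. FOXK2 (ENSDARG00000030583) was at 314 and 12.4 CPM with the additions, 149 and 51.2 CPM in co-cultured cells and 55.6 and 211 CPM in uncultured cells. FOXN2 (ENSDARG00000045105) was at 75.2 and 0 CPM with the additions, 48.2 and 0 CPM in co-cultured cells and 1.5 and 6.9 CPM in uncultured cells. foxg1c did not exceed 6.6 CPM. Of the FoxM1 partners and mitotic targets 13 were tested and 0 called by limma, with 10 at an unadjusted p under 0.05 with the additions against uncultured cells, 0 against co-cultured cells and 10 in co-cultured against uncultured cells. They had sums of 30.8 and 130 CPM with the additions, 268 and 71.7 CPM in co-cultured cells and 1016 and 1400 CPM in uncultured cells, where FOXM1 was at 16.1 and 0.1 CPM. In co-cultured cells mybl2a, at 175 and 70.9 CPM, made up most of these sums. It was at 0.1 and 116 CPM with the additions and at 69.8 and 74.0 CPM in uncultured cells. FOXL2 (ENSDARG00000068417) was at 5.3 CPM in 1 uncultured library and listed at 0 in the other DP libraries. The 10 members found in the niche and listed at 0 throughout the DP set were FOXC1, foxc1b, foxd1, foxd2, FOXD3, foxd7, foxf2b, FOXJ1, foxj1b and foxq1b.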

How the data were processed

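The authors deposited 1 table of CPM per library, to 2 decimals in the niche and 1 decimal in the DP set. Libraries were made by Quartz-seq, per the labels, in which oligo-dT primed cDNA is tailed and amplified by PCR; no molecular identifiers are described. HISAT2 2.1.0, Subread 1.6.4 and build GRCz11 are named, per the submitters' processing notes; how they were set is not given in the sources used here. Of 32047 identifiers 28978 had a symbol. Columns of other series numbered 0.

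In the niche libraries 100.0% of CPM values were whole multiples of 1 read within 0.1 read, which gave depths of 9260867 and 9880702 reads for the ZKS libraries, 7006341 and 6984492 for the pericyte and 13372200 and 16242092 for the sinusoid libraries. In ZKS replicate 2 a read was worth 0.101 CPM, close to 0.1 CPM, with which 37.74% of its values would be whole. Fold bounds divide the mean of the detected group by a floor of 3 reads for the group at 0. The higher floor of the 2 libraries at 0 was used (0.324 CPM in ZKS cells, 0.43 in pericytes, 0.224 in sinusoids). The bounds cover counting error at the floor only, and not the spread between the libraries of the detected group. Of recovered counts above 0, 54.26% to 61.04% were even, so reads may not have been counted independently, and the floors may then understate the error.

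Genes with at least 1 CPM in 2 libraries of a set were tested in R 4.3.3 with limma 3.58.1 (empirical Bayes with a trend, two-sided, Benjamini-Hochberg over all genes tested, threshold 0.05). The values tested were log2(CPM + 1), scaled by TMM (edgeR 4.0.16), which understates the change of low genes. The 6 libraries of a set shared 1 fit, leaving 3 residual degrees of freedom, and the script was tested on simulated data. Alternatives were a pseudocount of 5, no filter, a filter of 5 CPM, CPM as deposited, 4 libraries alone, a replicate block, each library left out, and, in the niche set, edgeR and DESeq2 1.42.0 on recovered reads. Without TMM scaling the median log2 change of all genes was 0.10 and not -0.15 in ZKS cells against pericytes, 0.03 and not -0.12 in ZKS cells against sinusoids, and -0.51 and not -0.64 in DP cells with IWR-1-endo and Thpo against uncultured cells. It was -0.12 and not -0.06 in pericytes against sinusoids. The higher share of all calls in ZKS cells against pericytes was 51.2% and not 40.8%.

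Values in every library are given for members at 5 CPM in both libraries of a group and for vascular, stromal, cell cycle and FoxO members that passed the filter; other lists name at most the 3 called genes with the largest change, and further markers were named after their values were seen. The members, lists and roles were chosen with earlier results of these data known. Capital symbols are those of the gene name table. No coordinates are given, since the annotation used is of another build.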

Additional observations from a re-analysis of the deposited data

How the results depend on the processing

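Of 48 called niche differences of single members, 23 kept their direction and their side of the threshold under every alternative that tested them, and no called difference changed sign. Members that failed the filter in an alternative were not tested there. Among the 23, both calls of FOXD3 and those of foxf2b and foxo6a in ZKS cells against sinusoids were not tested without either ZKS library. Those alternatives could not end these calls. Leaving out 1 library, 9 to 17 members were called in ZKS cells against pericytes (19 with all libraries), 6 to 15 in ZKS cells against sinusoids (16) and 10 to 14 in pericytes against sinusoids (13), with fewer members tested and a lone library assumed to vary like the others. Replicate numbers 1 and 2 recur across the groups, but the deviations of same-numbered libraries correlated at -0.0119 to 0.0638 in the niche set and -0.00953 to 0.00142 in the DP set, so the numbers were not taken to pair libraries. With a replicate block the counts were 19, 15 and 14, and 0 in each DP comparison. The block ended the calls of FOXC1 in ZKS cells against sinusoids (adjusted p = 0.0533) and of foxp1b in pericytes against sinusoids (0.0518), called FOXM1 (0.0408) and FOXN4 in pericytes against sinusoids, and changed no other call of a member. On recovered reads edgeR called 17, 14 and 9 members and DESeq2 18, 22 and 15. With CPM as deposited 18, 16 and 12 were called. Over all genes, calls in ZKS cells against pericytes (5918) numbered 1945 and 1832 without ZKS replicates 1 and 2 and 3865 without pericyte replicate 2, and calls in ZKS cells against sinusoids (5024) numbered 1879 and 1792 without those ZKS libraries. Calls in pericytes against sinusoids (4036) numbered 2564 and 1981 without pericyte replicates 1 and 2, 2541 without sinusoid replicate 2, 2335 with the 4 libraries alone and 1985 by edgeR. Some differences that were not called changed sign. With CPM as deposited, ZKS cells against pericytes gave 0.278 for foxp1a, 0.0931 for FOXK2 (ENSDARG00000030583) and 0.0305 for foxj2. Leaving out 1 library, FOXN2 (ENSDARG00000045105) in this comparison ranged from -0.178 to 1.07. In ZKS cells against sinusoids FOXP2 ranged from -1.34 to 0.122 and foxj1b from -0.167 to 0.759. In pericytes against sinusoids the ranges were -0.758 to 0.371 for foxn3, -1.69 to 0.267 for foxf2a, -1.16 to 0.623 for foxo3a, -0.754 to 0.249 for foxj3, -0.224 to 0.621 for FOXO4 and -0.258 to 0.136 for FOXO1 (ENSDARG00000099555), which was at 0.013 by edgeR and 0.0652 by DESeq2. The cause of these changes was not tested. With 2 libraries a group and 3 residual degrees of freedom, members under 5 CPM are poorly resolved, and the DP libraries, of unknown depth, gave 0 calls over all genes under every alternative run.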
